A study of Arabidopsis thaliana with 15 samples.

Results

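Transcripts of 5 Arabidopsis thaliana genes that act on pectin were followed through sorted root cells: the polygalacturonase genes RCPG and AT3G15720, the pectin methylesterase genes PMEPCRF and AT5G04970, and the pectin methylesterase inhibitor gene AT5G62340. They are 5 of 13350 genes with a named probe set here, and each was represented by 1 of the 22810 probe sets on the array. They were chosen by name, with the population values of these arrays already known, so their levels below are a description and carry no test. All 5 passed the filter on low signals.

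Pectin is the galacturonic acid polymer that glues plant cells together and sets how stiff or loose the wall is. Pectin methylesterases strip methyl groups from it, and inhibitor proteins bind these enzymes and block them. The stripped polymer can be stiffened by calcium, or cut by polygalacturonases, which hydrolyse the backbone, and by pectate lyases, which cleave it by elimination. Root cap cells are known for wall loosening, because the outer cap is continually shed as the root grows.

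Transcripts were hybridised to Affymetrix arrays. The plants were ecotype Columbia seedlings grown for 5 days and then kept for 3 h on sulfur deficient medium. All 15 arrays share this treatment, so the comparisons are between cell populations only. Cells were released as protoplasts and sorted by fluorescence, with 3 arrays each for the columella root cap (marker line Pet111), the epidermis with the lateral root cap (pWER::GFP), the cortex (pCOR::GFP), the endodermis with the quiescent center (pSCR::GFP) and the stele (pWOL::GFP). Whether the replicates were planted separately is not stated in the labels, and p-values therefore measure only how much these samples vary, which may be technical. Below, the mixed populations are called epidermis and endodermis for short.

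The labels were set against marker genes where a named probe set existed. The 5 cortex markers summed to a deposited signal of 3109 to 3867 in the cortex and 37.8 to 641.6 elsewhere, although CO2, a defining cortex marker, was near the bottom of the scale on every array. JKD of that list did not separate the cortex (104.1 to 149.4) from the endodermis (100.9 to 225.8), while AT1G62510, AED3 and NPF6.4 did. The 4 named endodermis markers of 11 summed to 3928 to 4707 in the endodermis and 55.1 to 1622 elsewhere. SGN3 alone gave 3223 to 3942 of the endodermis sums. BLJ and EN7 were also highest on the endodermis arrays, but AGL42, at 35.3 to 50.2 there, overlapped the cortex (22.9 to 42.2). None of the 8 columella and root cap markers had a named probe set, so the columella label could not be checked in this way. The nearest array by correlation belonged to the same population for 12 of 15 arrays. The other cases were the arrays labelled epidermis replicate 2 and stele replicate 1, which lay nearest to a stele and an epidermis array, and stele replicate 2, which lay nearest to epidermis replicate 2. The 2 named stele markers of 11, LHW and PHV, summed to 301.5 on stele replicate 1, against 1378 and 1909 on the other stele arrays, and to 1476 on epidermis replicate 2, against 393.3 and 224.4 on the other epidermis arrays. The 2 named epidermis markers, the root hair expansin genes EXPA7 and EXPA18, summed to 574.6 to 837.7 on the 3 epidermis arrays and to 589 on stele replicate 1, 668.6 on stele replicate 2 and 102.2 on stele replicate 3. Groups were kept as labelled, and results are also given without epidermis replicate 2 and stele replicate 1, called both doubtful arrays below. They were singled out on these same data, so calls without them are no independent support. Stele replicate 2 stayed in throughout those results, with its epidermis marker sum of 668.6. Values are the deposited signal unless a log2 scale is named.

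RCPG encodes a polygalacturonase named for the root cap. In the columella its signal was 8749, 4076 and 4003 on the 3 arrays. It was 562, 16.4 and 758.5 in the epidermis with the lateral root cap, 460.5, 10.1 and 120.4 in the stele, 81.2, 82.2 and 30.4 in the endodermis, and 11.2, 91.7 and 30.5 in the cortex. Every columella array thus lay above every other array. The epidermis held 1 array far below its companions, and the stele arrays were widely spread. The doubtful arrays were the epidermis array at 16.4 and the stele array at 460.5, the highest of the stele. On the scale of log2(quantile-scaled signal + 16), used for all differences below, the columella mean was 23.2-fold that of the epidermis, 49.1-fold that of the stele, 69.2-fold that of the endodermis and 97.4-fold that of the cortex. The means of those 4 populations could not be put in order, since their ranges overlapped between neighbours.

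That order changed without both doubtful arrays. The 2 remaining epidermis arrays, at 562 and 758.5, then lay above every cortex, endodermis and remaining stele array. The difference of the epidermis from the mean of the other 4 populations was 1.86 log2 (SE 0.50), against 0.05 with all arrays. The columella remained 8.04-fold above the epidermis, and the epidermis was 8.61-fold above the endodermis, its next neighbour. In bulk sorted cells, fewer expressing cells and less RNA per cell cannot be told apart.

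AT3G15720, the other polygalacturonase gene, had a different distribution. It was at 66.1, 732.3 and 569.4 in the stele, 57.7, 692.2 and 61.8 in the epidermis, and 41.5, 204.1 and 99.6 in the endodermis. In the columella it was at 11.3, 20 and 4.31, and in the cortex at 3.07, 16.8 and 2.27. The lowest endodermis array lay above the highest columella and cortex arrays, so the populations formed a higher set of 3 and a lower set of 2. The higher set was uneven. It ran from the 45.28th percentile of its array (endodermis replicate 1) to the 88.95th (stele replicate 2). The stele mean was 12.2-fold that of the columella and 14.6-fold that of the cortex, without overlap. It was 2.02-fold that of the epidermis and 2.88-fold that of the endodermis, and those ranges overlapped.

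The doubtful arrays again stood apart from their companions. The epidermis array at 692.2 was replicate 2, and the stele array at 66.1 was replicate 1. Without both, AT3G15720 was 3.77 log2 (SE 0.36) above the mean of the other populations in the stele, against 2.50 (SE 0.68) with all arrays. The stele mean was then 5.67-fold that of the endodermis, with no overlap. The epidermis difference moved to -0.08, against 1.24 with all arrays.

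**Figure D1:**
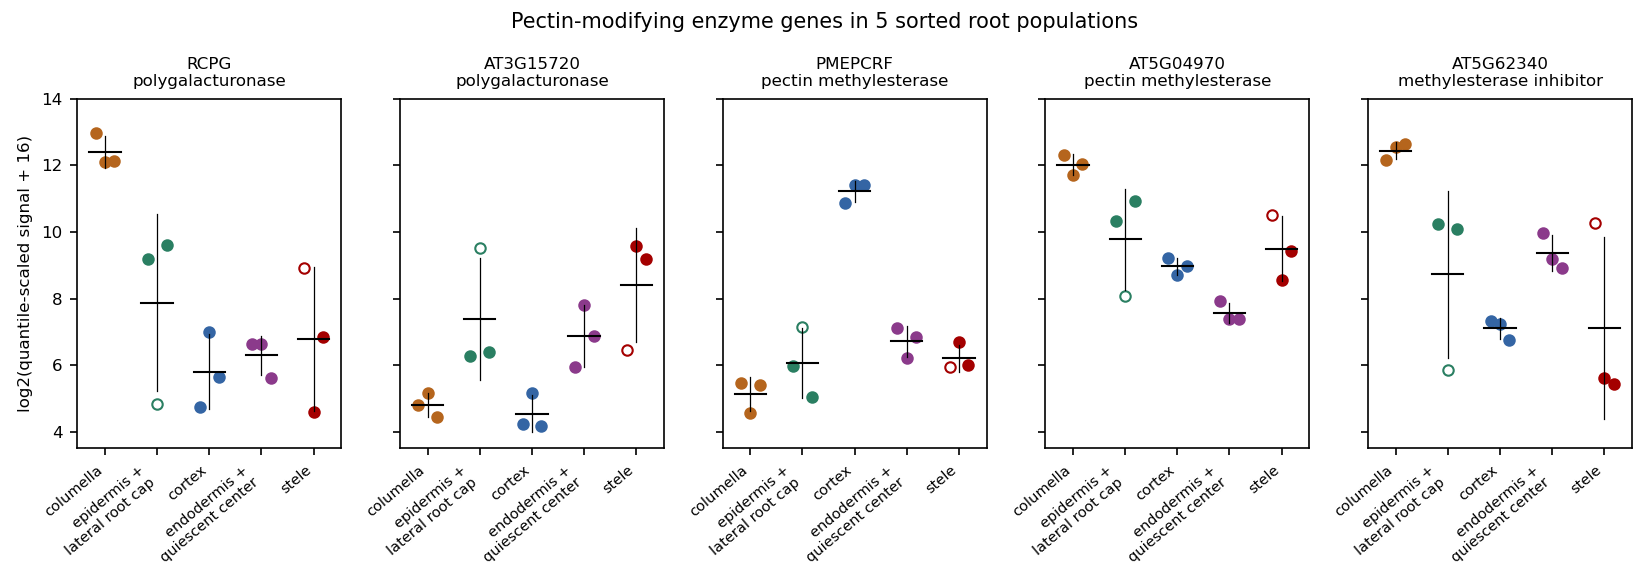
Level of the 5 genes on each array, as log2(quantile-scaled signal + 16), in the 5 sorted populations. Points are arrays, bars are means ± SD (n = 3), and open points are epidermis replicate 2 and stele replicate 1. RCPG, AT5G04970 and AT5G62340 were highest in the columella, PMEPCRF in the cortex and AT3G15720 in the stele. For every gene except PMEPCRF, both open points lay nearer to the mean of the other population's filled points than to that of their own.

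PMEPCRF, a pectin methylesterase gene, was a cortex transcript. Its signal was 2010, 2943 and 3009 in the cortex. It was 121.9, 58.2 and 96 in the endodermis, 43.8, 107 and 60.5 in the stele, 44.5, 152 and 18.2 in the epidermis, and 27.2, 9.24 and 22 in the columella. No array outside the cortex came near the cortex arrays, and each other population overlapped its neighbour in the order. The cortex mean was 22.6-fold that of the endodermis, 32.3-fold that of the stele, 35.8-fold that of the epidermis and 68.0-fold that of the columella. The cortex difference from the other populations was 5.32 log2 (SE 0.26) without both doubtful arrays, against 5.19 (SE 0.35) with all. The summed cortex markers were highest in the same arrays, and in the endodermis they reached 565.6 to 641.6, the next level in their order too. Their part in the PMEPCRF values was not tested.

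AT5G04970, the other pectin methylesterase gene, was highest in the columella, at 5458, 3064 and 3763. The epidermis arrays gave 1280, 273.5 and 2013, the stele arrays 1480, 376.3 and 667, the cortex arrays 567.9, 393.9 and 465.7, and the endodermis arrays 229.2, 146.2 and 149.6. The signal was thus graded, with the columella separate at the top and the endodermis separate at the bottom. The columella mean was 4.74-fold that of the epidermis, 5.75-fold that of the stele, 8.30-fold that of the cortex and 22.0-fold that of the endodermis. Epidermis, stele and cortex overlapped. When both doubtful arrays were left out, the epidermis separated from the stele by 3.11-fold, and the stele was 1.02-fold the cortex, against 1.44-fold with all arrays.

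AT5G62340 encodes a protein of the pectin methylesterase inhibitor family. It was at 4767, 5511 and 5935 in the columella. It was at 1016, 575.2 and 470.7 in the endodermis, 1195, 56.8 and 1095 in the epidermis, 1257, 41.2 and 34.1 in the stele, and 120.5, 113.8 and 74.9 in the cortex. The columella arrays were close to each other and above all the rest, whereas 1 stele array exceeded the other 2 by a wide margin. The columella mean was 8.50-fold that of the endodermis, 13.2-fold that of the epidermis, 40.3-fold that of the stele and 40.6-fold that of the cortex.

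With both doubtful arrays left out, AT5G62340 showed a full order with no overlap between neighbours. That order rests on only 2 arrays each for the epidermis and the stele. The lowest epidermis array (1095, 10.09 log2) was close to the highest endodermis array (1016, 9.97 log2). The columella was 4.86-fold the epidermis, the epidermis 1.75-fold the endodermis, the endodermis 4.78-fold the cortex, and the cortex 2.97-fold the stele. The stele difference from the other populations was -4.27 log2 without both arrays, against -2.29 with all. The stele array that left was the one at 1257, and the epidermis array that left was the one at 56.8.

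For the 5 genes and both doubtful arrays together, 9 of 10 values lay nearer to the mean of the other population's remaining arrays than to that of their own. The exception was PMEPCRF on stele replicate 1, which lay 0.38 log2 from the remaining stele arrays and 0.44 log2 from the remaining epidermis arrays. Both arrays were singled out by their correlation over all tested probe sets, and the 5 genes were chosen with their values known. The count is therefore a description and no independent check of the labels. The marker sums above differ on the same arrays, and their part in these values was not tested.

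The 5 genes fell into 3 patterns. Over the 15 arrays, log2 levels of RCPG correlated with those of AT5G04970 at r = 0.895 and with those of AT5G62340 at r = 0.876. AT5G04970 and AT5G62340 correlated at r = 0.682. The other pairs had negative coefficients, from -0.32 to -0.60. Arrays of a population share their cells, so these points are not independent. Thus a polygalacturonase, a pectin methylesterase and an inhibitor transcript were all highest in the same population, while the second gene of each enzyme family had its highest mean elsewhere.

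The genes most like each of them were sought among 8899 probe sets with 1 gene name, by Pearson r over the 15 arrays. For AT5G04970 the closest was AT1G02810, itself a pectin methylesterase gene (r = 0.968), followed by AT1G10810 and AT1G13000 (0.961 and 0.958). For AT3G15720 the closest was QKY, a membrane protein gene of tissue patterning (0.960), followed by the pectate lyase gene AT3G53190 (0.951) and Y14, an RNA-binding protein gene (0.950). RCPG was closest to UGT71B5, a glycosyltransferase gene (0.979), AT1G21340 (0.978) and AT1G77610 (0.974). PMEPCRF was closest to UGT76E12, also of the glycosyltransferases (0.983), the cytochrome P450 gene CYP71B34 (0.982) and AT5G59530 (0.981), and AT5G62340 to AT1G23160 (0.962), AT5G35940 (0.957) and AT1G52910 (0.954). Without both doubtful arrays, 3, 2, 3, 1 and 2 of these 3 genes remained for RCPG, AT3G15720, PMEPCRF, AT5G04970 and AT5G62340 in turn.

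Some close relatives lie beside these genes on the chromosome, by the order of the gene table. They were looked up after values were seen. AT5G04960, the pectin methylesterase gene next to AT5G04970, was at 302.4, 536.8 and 380.8 in the epidermis and at 249.2, 481.3 and 147.4 in the stele, against 32.6, 31.9 and 45 in the columella, where AT5G04970 was highest. AT5G04960 was higher in the epidermis by 2.31 log2 (SE 0.30, limma with Benjamini-Hochberg adjustment, adjusted p = 0.000208) and lower in the columella (-1.43, adjusted p = 0.00169). These neighbours thus had different top populations.

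Next to AT5G62340 lie 2 more inhibitor genes. AT5G62350 was at 2128, 1539 and 1837 in the cortex, above all other arrays, which ran from 320.4 to 923.5. AT5G62340 was low in the cortex, at 74.9 to 120.5. The cortex difference of AT5G62350 was 1.60 log2 (SE 0.26, called higher by limma with Benjamini-Hochberg adjustment, adjusted p = 0.000182). AT5G62360 had a signal of 5.17 to 55.1 on all arrays and did not pass the F test (adjusted p = 0.628).

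**Figure D2:**
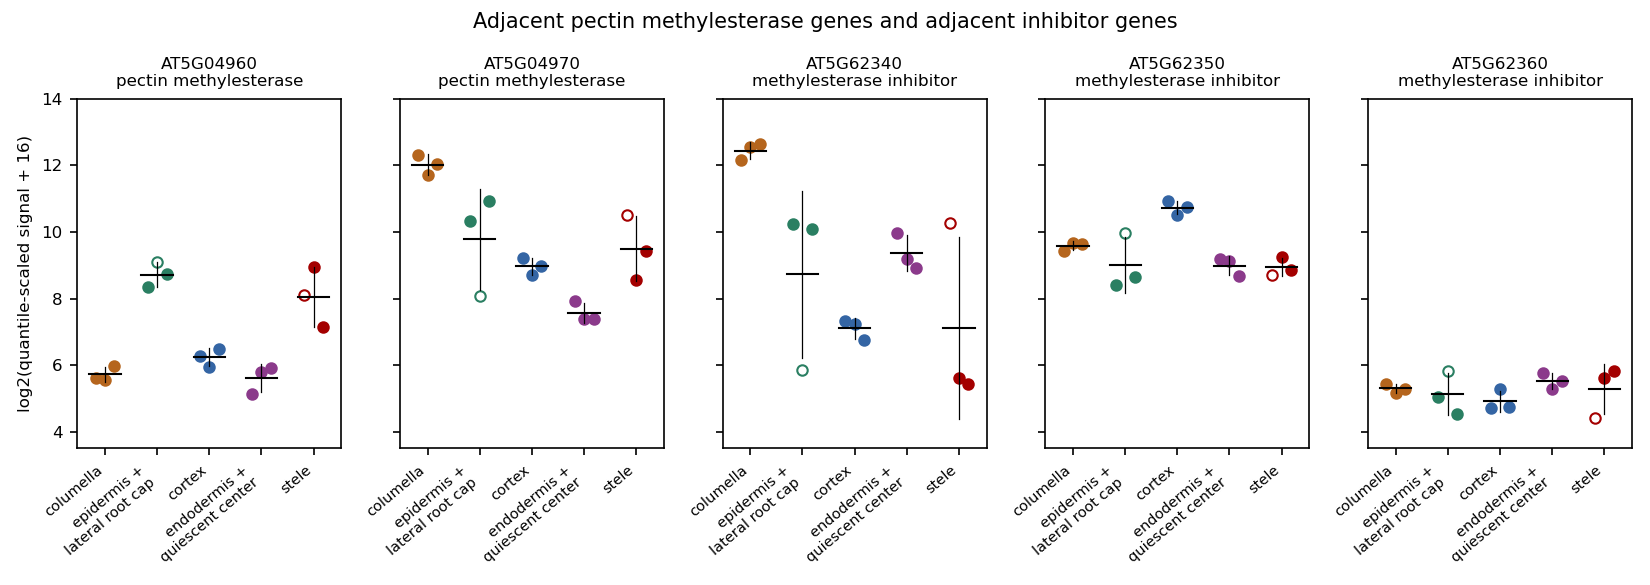
Level of AT5G04970 and AT5G62340 and of the related genes beside them, as log2(quantile-scaled signal + 16), on each array of the 5 populations. Points are arrays, bars are means ± SD (n = 3), and open points are epidermis replicate 2 and stele replicate 1. AT5G04960 was highest in the epidermis and AT5G62350 in the cortex, whereas AT5G04970 and AT5G62340 were highest in the columella.

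The wider pectin machinery was taken from a list of 8 families holding 264 further genes, assigned by general knowledge of their loci. Of these, 155 had a named probe set and 76 passed the filter. Among the 76, 50 (65.8%) passed limma's F test for equal means at an adjusted p under 0.05, against 66.1% of all 16126 tested probe sets, so the list's share was near the background. By family, 10 of 13 pectate lyase genes passed, 10 of 19 polygalacturonase genes, 11 of 17 pectin methylesterase genes, 10 of 15 inhibitor genes, 4 of 5 pectin acetylesterase genes, 4 of 4 rhamnogalacturonan lyase genes and 1 of 3 pectin synthesis genes. No polygalacturonase inhibitor gene could be tested. Because each population is set against the mean of the other 4, a gene high in 1 population has lower values in others by construction. With both doubtful arrays left out, 64 of 74 passed, against 83.1% of all probe sets, and all 50 were among them.

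**Figure D3:**
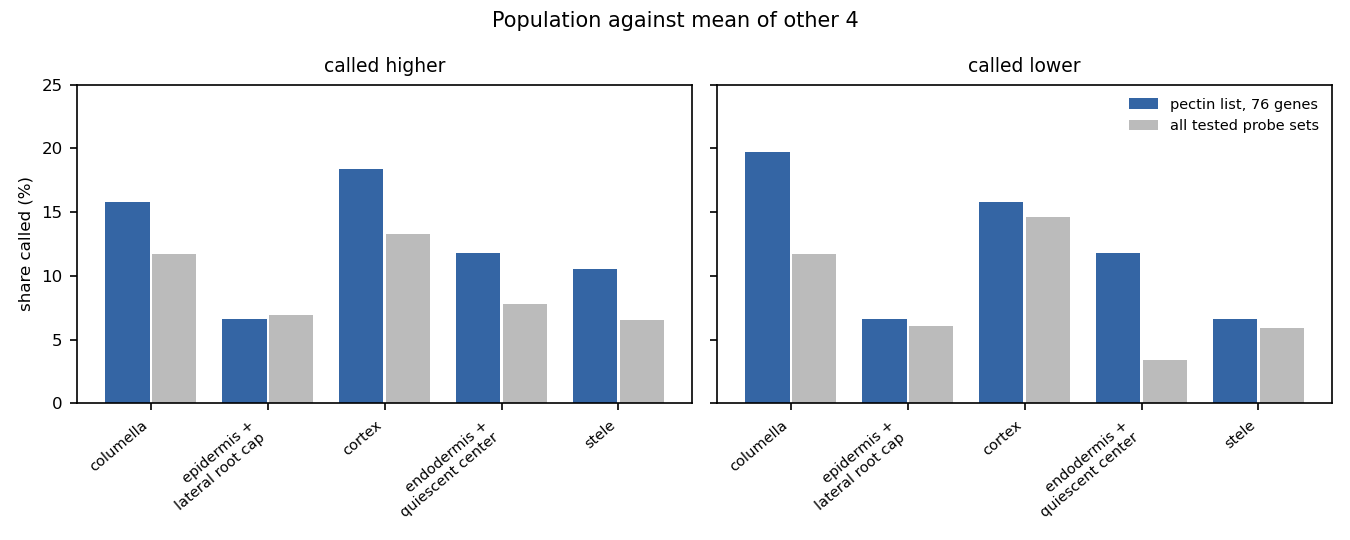
Share of 76 further pectin genes and of all tested probe sets called higher (left) or lower (right) in each population against the mean of the other 4, in percent. Calls had an adjusted p under 0.05 and differed by 1 log2 or more. The shares of the pectin genes ran from 6.58% to 19.7%.

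In the columella, 12 of the 76 genes were called higher (15.8%, against a background of 11.7%) and 15 lower (19.7%, against 11.7%). The median difference was -0.22 log2 over the list and -0.03 over all probe sets. The higher genes came from several families. The pectate lyase gene AT4G13210 had a signal of 2431, 2090 and 2356 in the columella and at most 216.3 elsewhere. It was higher by 5.24 log2 (SE 0.64, limma with Benjamini-Hochberg adjustment, adjusted p = 1.81e-05). The polygalacturonase gene AT2G43870 was at 7180, 3443 and 3527 in the columella and at most 537.3 elsewhere, higher by 4.12 (SE 0.48, adjusted p = 1.23e-05). The inhibitor gene AT5G51520 (3.33) and the pectin methylesterase gene AT3G47400 (2.55) were also higher. In the classes of the 3 described genes highest in the columella, the shares called higher there were near the background of 11.7%. They were 2 of 19 polygalacturonase genes (10.5%), 2 of 17 pectin methylesterase genes (11.8%) and 2 of 15 inhibitor genes (13.3%). Called lower were 4, 3 and 1 genes of these classes in turn.

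Other genes of the list were lower in the columella. The polygalacturonase genes AT3G06770 and AT3G16850 differed by -2.87 and -2.36, and the pectin acetylesterase gene AT3G05910, whose enzyme removes acetyl groups from pectin, by -2.85 (SE 0.35, limma with Benjamini-Hochberg adjustment, adjusted p = 1.98e-05). AT3G06770 was at 107.4 to 146.6 in the columella and at 493.9 to 2025 elsewhere, so its groups did not overlap. Over the polygalacturonase genes, 2 of 19 were higher and 4 lower, and over the pectate lyase genes 4 of 13 were higher and 5 lower. The counts were 13 higher and 21 lower, of 74 tested, without both doubtful arrays, against backgrounds of 12.3% and 12.8%.

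In the cortex, 14 genes were called higher (18.4%, against a background of 13.3%) and 12 lower (15.8%, against 14.6%). The median difference was 0.04 log2 over the list and -0.07 over all probe sets, or -0.22 over all probe sets under the deposited scaling. Methylesterase inhibitors were the family with most higher calls, at 5 of 15, with 2 lower. The pectin methylesterase gene ATPMEPCRD had a signal of 573.6, 866.4 and 873 in the cortex and at most 201.1 elsewhere, and was higher by 3.75 log2 (SE 0.28, limma with Benjamini-Hochberg adjustment, adjusted p = 2.07e-07). It was the only 1 of the 17 further pectin methylesterase genes called higher there. The rhamnogalacturonan lyase gene AT4G37950, for an enzyme that cleaves the branched part of pectin, was higher by 2.87, the pectate lyase gene AT3G09540 by 2.77 and the inhibitor gene AT3G17130 by 2.38.

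Lower in the cortex were the pectate lyase gene AT3G53190 (-3.02), the pectin methylesterase gene AT3G47400 (-2.99) and the inhibitor gene AT1G14890 (-2.13). The call of AT1G14890 (limma with Benjamini-Hochberg adjustment, adjusted p = 0.0314) ended without any 1 of the 3 cortex arrays (0.0684 to 0.107) and with a pseudocount of 64 (0.0568). Under the deposited scaling, 38.9% of all cortex calls were higher, against 47.7%.

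In the endodermis, 9 genes were called higher and 9 lower (11.8% each, against backgrounds of 7.83% and 3.42%), with median differences of -0.06 log2 over the list and -0.09 over all probe sets. The rhamnogalacturonan lyase gene AT2G22620 stood out at 2028, 1992 and 2184 in the endodermis, against at most 314.7 on any other array, which was epidermis replicate 2. It was higher by 5.73 log2 (SE 0.70, limma with Benjamini-Hochberg adjustment, adjusted p = 5.43e-05). AT3G09540 was also higher there (2.95), at 408.7 to 523.3 in the endodermis, 367.5 to 477.5 in the cortex and at most 70.8 in the columella, the epidermis and the stele. Of the 9 lower genes, 5 were among the 17 tested pectin methylesterase genes (29.4%, against the background of 3.42%), of which 1 was higher. They included AT2G47550 (-2.30), AT1G02810 (-1.91) and AT3G47400 (-1.68).

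The pectin methylesterase gene AT5G19730 (2.37, adjusted p = 0.0281) and the polygalacturonase gene AT3G61490 (2.04, adjusted p = 0.0301) were called higher in the endodermis by limma with Benjamini-Hochberg adjustment. Both calls ended without any 1 of the 3 endodermis arrays (adjusted p = 0.0702 to 0.112 for AT5G19730 and 0.072 to 0.123 for AT3G61490), and that of AT3G61490 also with a pseudocount of 1 (0.0503). The stele was as high on 2 of its arrays. AT5G19730 was at 173.8 to 236.6 in the endodermis and at 7.5, 175.2 and 328.4 in the stele. AT3G61490 was at 218.7 to 317.9 in the endodermis and at 11.4, 287.8 and 317 in the stele. Without both doubtful arrays, both genes were called higher in the stele too (2.43 and 2.06 log2, against 2.40 and 1.97 in the endodermis). The AT1G02810 call ended without endodermis replicate 3 (0.0718, against 0.00886), and 4 genes rather than 9 were then lower, with no background given for that fit.

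In the stele, 8 genes were called higher (10.5%, against a background of 6.5%) and 5 lower (6.58%, against 5.89%). Of the 8, 5 were among the 17 tested pectin methylesterase genes (29.4%), of which 1 was lower. These calls depended on single arrays, as given below. The median difference over the list was -0.08 log2, against -0.0017 over all probe sets. AT3G53190, the pectate lyase gene whose levels resembled those of AT3G15720, was higher by 2.36 log2 (SE 0.53, limma with Benjamini-Hochberg adjustment, adjusted p = 0.00583). The pectin methylesterase genes AT5G04960 (1.48) and AT3G10720 (1.43) and the polygalacturonase gene AT4G01890 (1.29) were higher, and AT3G09540 (-1.73), ATPMEPCRD (-1.50) and AT2G43870 (-1.40) were lower. AT5G04960 was at 249.2, 481.3 and 147.4 on the stele arrays, where the summed epidermis markers were 589, 668.6 and 102.2. The part of such signal in its stele call was not tested. Under the deposited scaling, 63% of all stele calls were higher, against 52.5%.

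The stele calls depended on the arrays. Leaving out 1 stele array gave 13 higher genes without replicate 1, 5 without replicate 2 and 3 without replicate 3. The matching shares of all probe sets are not given here, so these counts have no background. Without both doubtful arrays, 13 were higher and 13 lower, of which 5 and 4 were among the earlier calls, against backgrounds of 12.9% and 11%. AT3G53190 was then higher by 3.43, and the inhibitor gene AT1G14890 by 2.96. By limma with Benjamini-Hochberg adjustment, the AT3G53190 call ended without stele replicate 2 (adjusted p = 0.0571), and that of AT3G10720 without stele replicate 3 (0.0645) and, at 0.96 log2, without both doubtful arrays. The AT4G01890 call ended without any 1 stele array (0.0551 to 0.0972), and that of AT2G43870, at an adjusted p of 0.0467, without 12 of the 15 arrays taken singly (0.0575 to 0.338).

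In the epidermis, 5 genes were called higher and 5 lower (6.58% each, against backgrounds of 6.95% and 6.1%), near the background in both directions, with median differences of -0.00014 log2 over the list and -0.01 over all probe sets. The highest difference was that of AT5G04960, given above. The pectate lyase gene AT3G53190 (1.65), the pectin methylesterase gene AT2G47550 (1.46, SE 0.27, limma with Benjamini-Hochberg adjustment, adjusted p = 0.00167) and the polygalacturonase gene AT4G01890 (1.33) were also higher. The lower genes included AT3G09540 (-2.25), the inhibitor gene AT4G25250 (-1.50) and ATPMEPCRD (-1.43).

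Leaving out epidermis replicate 2 raised the number of higher genes to 14, and leaving out replicate 1 or replicate 3 lowered it to 2 or 3. Backgrounds for these single omissions are not given here. Without both doubtful arrays, 15 genes were higher and 11 lower in the epidermis, of which 4 and 3 were among the earlier calls, against backgrounds of 11.6% and 12.4%. Among them were the pectin acetylesterase gene AT1G57590 (2.37), the pectin methylesterase gene AT5G51500 (2.15) and the pectate lyase gene AT3G24670 (1.99), which did not pass the F test over all arrays. By limma with Benjamini-Hochberg adjustment, the AT3G53190 call (adjusted p = 0.0319) ended without epidermis replicate 1 (0.0691), epidermis replicate 2 (0.139) or endodermis replicate 3 (0.0502). The AT4G01890 call ended without epidermis replicate 1 or 3 (0.0757 and 0.0925), and that of AT4G25250 without epidermis replicate 1 or 2, columella replicate 2, cortex replicate 1 or endodermis replicate 3 (0.0507 to 0.185).

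**Figure D4:**
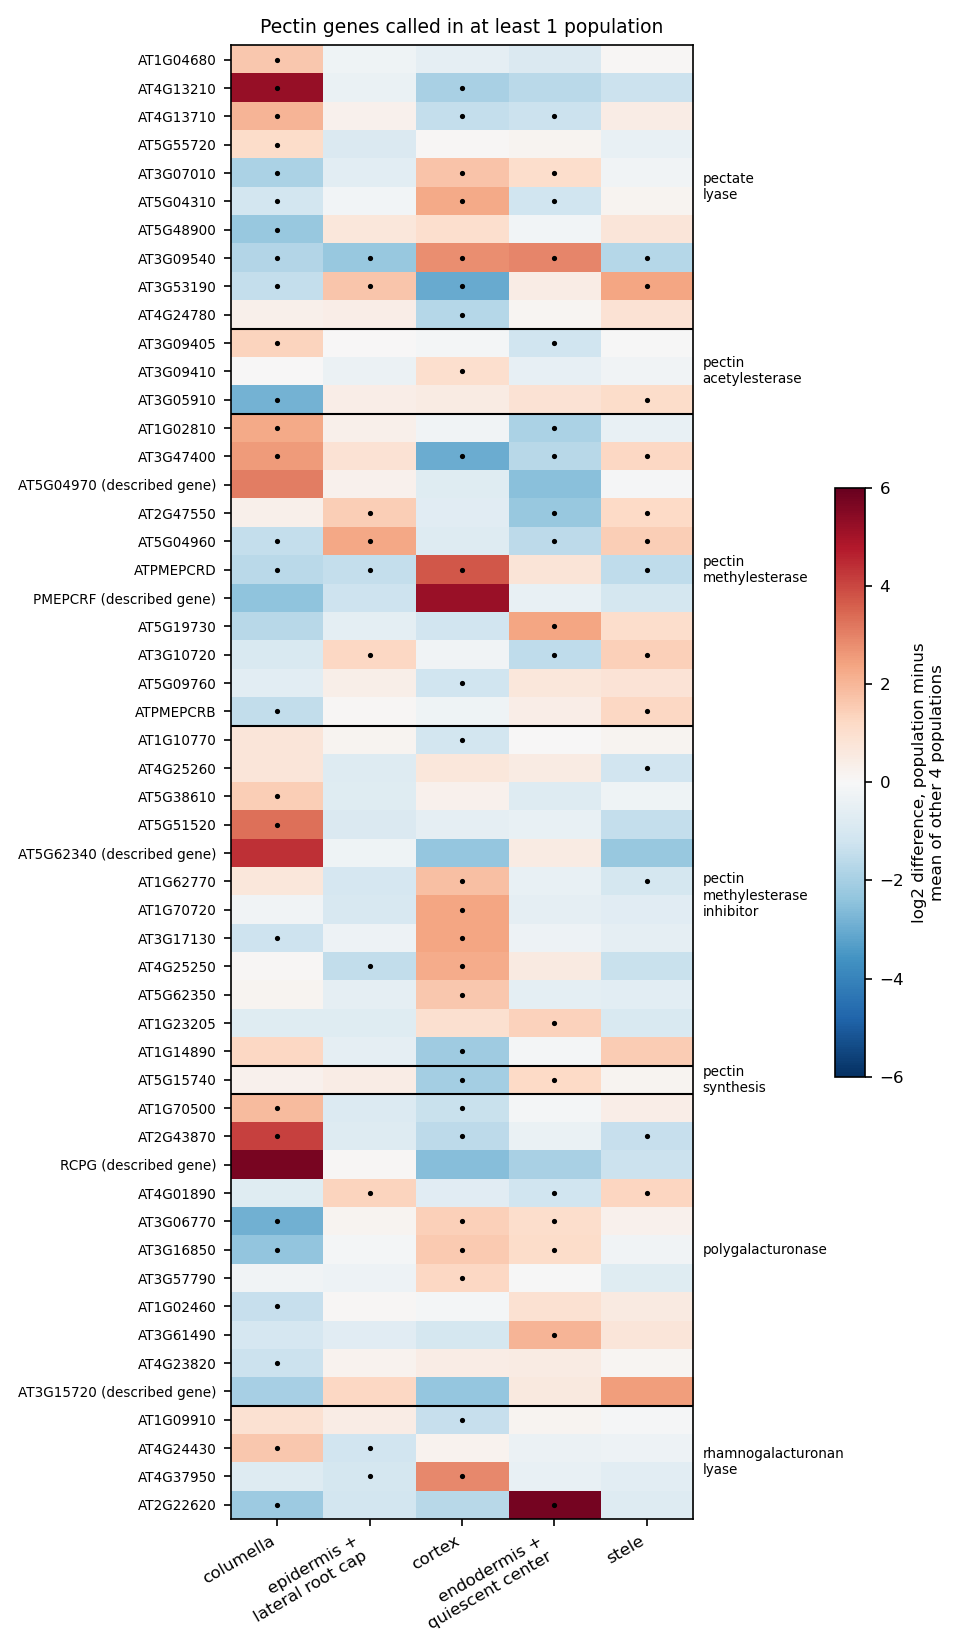
Log2 difference of each population from the mean of the other 4 for the 47 further pectin genes called in at least 1 population, in families, with the 5 described genes among them. Dots mark calls, and the 5 described genes carry none because they were chosen with their values known. Red is higher and blue lower in the population, and AT4G13210 in the columella, ATPMEPCRD in the cortex and AT2G22620 in the endodermis reach 5.24, 3.75 and 5.73.

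Up to 2 genes of highest mean level in each family are named among those that did not pass the F test over all arrays by limma with Benjamini-Hochberg adjustment. They were the pectate lyase genes AT3G24670 (adjusted p = 0.0739) and AT3G55140 (0.0722), the pectin methylesterase genes AT5G51500 (0.67) and AT5G51490 (0.31), the polygalacturonase genes AT2G43890 (0.329) and AT2G43880 (0.454), and the acetylesterase gene AT1G57590 (0.353). The inhibitor genes AT3G47380 (0.382) and AT1G14890 (0.0734) and the pectin synthesis genes AT3G49720 (0.129) and GAUT15 (0.625), which help build the polymer, did not pass either.

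Of these 11 genes, 9 were called in at least 1 population when both doubtful arrays were left out, and AT3G55140 and AT3G49720 in none. AT1G14890 was already called lower in the cortex with all arrays. The share of all probe sets called in at least 1 population is not given here. Against 66.1% with all arrays, 83.1% of all probe sets passed the F test in the fit without both. In that fit, by limma with Benjamini-Hochberg adjustment, AT5G51490 (1.70 log2, adjusted p = 0.00283), AT2G43880 (1.44, 0.00132), GAUT15 (1.39, 8.57e-05) and AT3G47380 (1.21, 0.00175) were higher in the epidermis, and AT2G43890 was lower in the stele (-1.10, 0.0367) and the columella (0.0236). AT5G51500 was at 2921, 328.8 and 3796 in the epidermis and at 3565, 361.4 and 829.9 in the stele, where 328.8 and 3565 belonged to the doubtful arrays, against 354.9 to 1217 in the other populations. Its epidermis difference was 2.15 log2 without both (SE 0.32, adjusted p = 4.83e-05) and 0.85 with all arrays. Both arrays were singled out by their values in these data, and these genes were picked with values seen. The adjusted p-values without both are therefore no independent support.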

How the data were processed

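The authors deposited linear signal intensity of 22810 probe sets. MAS5 produced it, per the submitters' processing notes, and its version is not given in the sources used here. The same holds for the genome build, and coordinates are therefore left out. RNA was amplified in a 2-cycle protocol, per the labels' protocols. Array medians of the deposited intensity differed by 1.76 times, so arrays were quantile normalized. Values were taken as log2(signal + 16), which understates changes of dim probe sets. After removal of 64 control probe sets, the filter kept 16126 probe sets, those above an array's 40th percentile on 3 or more arrays.

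A linear model with 5 population means was fitted over the 15 arrays (R 4.3.3, limma 3.58.1, lmFit and eBayes with a variance trend), and the code was checked on simulated data. Each population was compared with the unweighted mean of the other 4, and the 5 differences of a probe set sum to zero by construction. The Benjamini-Hochberg adjustment ran over all tested probe sets, and calls had an adjusted p under 0.05 and differed by 1 log2 or more. The number of arrays limits the precision.

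A single gene symbol was available for 13513 probe sets, of which 13436 matched a locus of assembly TAIR10.1, while 503 carried more than 1 symbol and 8794 have no name here. Where probe sets shared a gene, the brightest on average stood for it. The 5 genes, the pectin list and the tests were chosen with earlier results of these data known. The list genes named were, for each population, the 4 called higher and 3 called lower of largest difference, and for each family the 2 of highest mean not past the F test. Genes named beside a result without both doubtful arrays, and chromosomal neighbours, were picked with their values already seen. The alternatives were the deposited scaling, other pseudocounts, filters and variance settings, array weights, a replicate block, and leaving out arrays. Protein and promoter sequences were not used here.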

Additional observations from a re-analysis of the deposited data

How the results depend on the processing

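In its population of highest mean, each of the 5 described genes kept the sign of its log2 difference under every alternative run, with moves larger than the spread of that population's arrays for 3 of them. In the epidermis, leaving out both doubtful arrays turned the sign for AT3G15720 (-0.08, against 1.24) and AT5G62340 (1.57, against -0.28). With a pseudocount of 64 they were 4.99 for RCPG and 3.99 for AT5G62340 in the columella, and 4.38 for PMEPCRF in the cortex, which was 5.67 with a pseudocount of 1. Leaving out 1 array at a time gave 4.03 to 4.77 for AT5G62340, against 4.37. Among the further pectin genes, counts called in the columella and the cortex stayed within 1.5 times of those reported. Elsewhere, a pseudocount of 64 gave 5 genes higher in the endodermis, 3 higher in the epidermis and 3 lower in the epidermis, where a pseudocount of 1 gave 8 lower. Array weights gave 14 higher and 10 lower in the epidermis and 15 higher in the stele, and the deposited scaling gave 3 lower in the stele. With both doubtful arrays left out, 15 were higher and 11 lower in the epidermis, and 13 were higher and 13 lower in the stele. The shares of all probe sets rose as well, from 6.95% and 6.1% to 11.6% and 12.4% in the epidermis. In the stele they rose from 6.5% and 5.89% to 12.9% and 11%. For the other alternatives those shares are not given here, so their counts have no background. Leaving out 1 array at a time gave 2 to 14 higher and 4 to 8 lower in the epidermis, 3 to 13 higher and 4 to 8 lower in the stele, and 4 to 11 lower in the endodermis. The cause of these moves was not tested, except that each of the last sets rests on fewer arrays. Of 835 pairs of a named call and an alternative, 783 kept the call, 52 lost it and 0 changed sign; calls lost with a pseudocount, scaling or filter but not given above were those of AT3G09540 in the stele (adjusted p = 0.0938 with a pseudocount of 1, limma with Benjamini-Hochberg adjustment), AT2G43870 in the stele (0.0573 to 0.0591), AT4G01890 in the epidermis and the stele (0.0625 and 0.0744 with a pseudocount of 1, and 0.72 and 0.70 log2 with 64) and AT3G53190 in the epidermis (0.0591 with 64). AT4G25250 in the epidermis (-0.70 log2), AT3G53190 in the epidermis (0.90) and AT4G01890 in the stele (0.98) also lost their calls without both doubtful arrays. Whether the replicate numbers pair the arrays was not settled. Deviations of same-numbered arrays correlated at -0.516 to 0.724 (median -0.0121), over 0.1 in 6 of 30 pairs. Those of other numbers correlated at -0.798 to 0.723 (median -0.00053), over 0.1 in 6 of 60 pairs. Of 15 arrays, 5 correlated best with their own number. Both doubtful arrays enter these deviations, so the check cannot exclude pairing. With the replicate number as a block, 50 list genes passed the F test, as without it, and 7 rather than 5 were lower in the stele, while the other counts moved by at most 1.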
